A study of Caenorhabditis elegans with 95 samples.

Results

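Sperm genes of *Caenorhabditis elegans* were followed through light, temperature and free-running days. The genes were chosen by family name, with earlier results of these data known. A probe set was taken where its symbol, or 1 of its symbols, belongs to the *msp*, *ssp*, *spe*, *fer*, *nspd* or *ssq* families. It was also taken where a symbol is *gsp-3* or *gsp-4*. The symbol *spe-5* was left out. This gave 93 of 22548 probe sets, with 89 of 18217 gene symbols. They comprise 32 *msp*, 10 *nspd*, 10 *ssp*, 9 *ssq*, 2 *gsp* and 30 *spe* or *fer* probe sets. Of these, 15 match several symbols (up to 17) and are described by their probe set ID, and 59 have IDs ending in _x_at or _s_at, which marks probes shared between related sequences. Near-identical members of the *msp*, *nspd*, *ssp* and *ssq* families cannot be told apart by such probes.

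In hermaphrodites, sperm are made in the last larval stage before the germ line turns to oocytes, and they are stored in the spermatheca. Nematode sperm have no flagellum and crawl on a pseudopod, which is driven by filaments of major sperm protein (MSP, the *msp* products). MSP released from sperm is also the signal that starts oocyte maturation and ovulation. Most sperm genes are transcribed in developing spermatocytes, and mature sperm make hardly any RNA.

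Whole adults of the wild-type strain Bristol N2 were used throughout, and all had been moved as L4 larvae to 25 µM FUDR, which inhibits DNA synthesis and blocks progeny. LD animals lived in 12 h of light (500 to 1000 lux) and 12 h of dark at 18°C, and DD animals were sampled on the following day in constant darkness. WC animals lived in darkness with 12 h at 25°C and 12 h at 15°C, and CC animals were sampled on the following day at constant 15°C in darkness. Control animals were kept in constant darkness with no entrainment. RNA was taken every 4 h from hour 2 to hour 22 of the final cycle day and from hour 26 to hour 46 of free run. The later hours are named here by the matching hour of the first day (2, 6, 10, 14, 18 or 22). There were 18 LD arrays (series 3, 4 and 6), 18 DD (2, 4 and 6), 30 WC (1, 2, 3, 4 and 6), 18 CC (3, 4 and 6) and 11 control arrays (4 and 6), 95 in all. The data hold no array at hour 6 of control series 6, and by their labels 5 arrays each stand for 2 biological replicates. Each experiment held a pair of populations raised under opposing cycles. Which array holds which population is not given in the sources used here, so within a series a difference of phase and a difference between populations cannot be told apart.

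The deposited value is a score: a log2 value relative to the mean of its time series, rescaled so that each array has a mean of 0 and a variance of 1. A score says how far a gene was above or below its own mean in that series, in array SDs. It gives no level and no fold change, and a high score on 1 day of a series brings low scores elsewhere in it. First and second day could be compared in LD and DD of series 4 and 6 and in WC and CC of series 3, 4 and 6, where both days share 1 mean. On each array many probe sets share nearly the same score, between −0.11 and 0.11, which is called the floor here, and a probe set on it showed no measured departure from its mean. Array SDs, as far as they could be recovered, ranged from 0.67 to 1.95 of their average, and the number of arrays limits the precision.

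The families differed in how often they left the floor. All 32 *msp* and all 10 *nspd* probe sets did so by more than 1 score on some array, in a median of 67.5 and 65.5 of the 95 arrays. The corresponding medians were 35 for *gsp*, 28.5 for *ssp*, 16 for *ssq* and 0.5 for *spe* and *fer* genes, beside 7 over all probe sets. Among the 30 *spe* and *fer* probe sets, 15 never left the floor by more than 1 score. These were *fer-1* (a ferlin needed for the fusion of sperm membranous organelles), *spe-9* (an EGF-repeat protein for sperm-egg interaction), *spe-38* (a four-pass membrane protein of the sperm surface), the sperm activation genes *spe-8*, *spe-12* and *spe-27*, *spe-10* (a palmitoyltransferase), *spe-19*, *spe-36*, *spe-40*, *spe-47*, *spe-49*, *spe-57* and both probe sets of *spe-55*. The score of *fer-1*, *spe-9* and *spe-38* stayed between −0.11 and 0.11 on every array. Probe sets on the floor in all arrays of a comparison were not tested, so the number tested differs between comparisons.

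**Figure D1:**
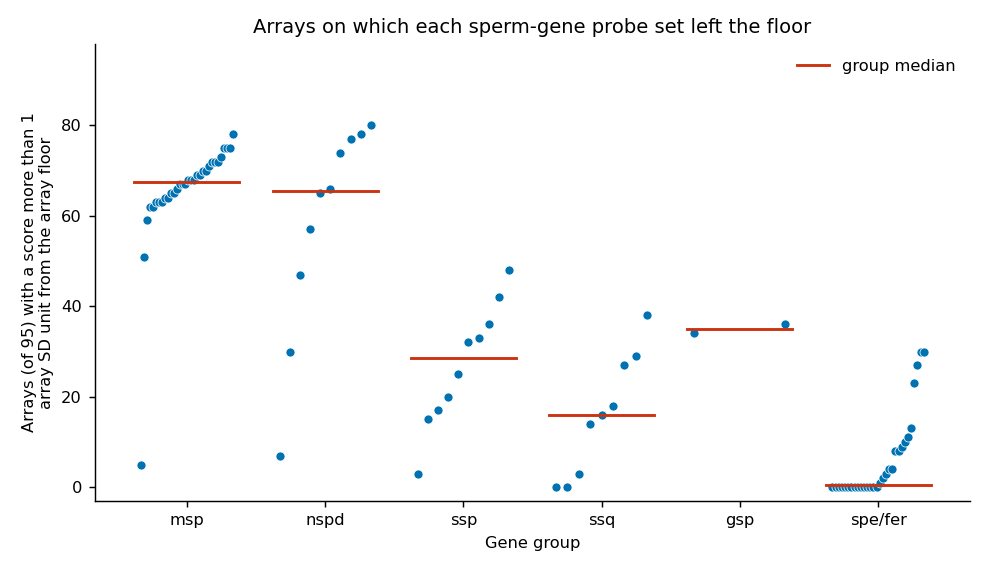
Number of arrays, of 95, on which each sperm probe set lay more than 1 score from the floor of its array, by gene family (1 point per probe set). The *msp* and *nspd* probe sets reach medians of 67.5 and 65.5 arrays, while 15 of 30 *spe* and *fer* probe sets lie at 0.

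The families also differed in which arrays they followed. Over the 95 arrays, the median score of the *msp* probe sets and that of the *nspd* probe sets (a nematode-specific peptide family) had a Pearson r of 0.90. The *ssp* (sperm-specific family, class P) and *gsp* medians had an r of 0.94. Between those pairs the correlation was lower, 0.58 for *msp* and *ssp* and 0.62 for *msp* and *gsp*. The *spe* and *fer* median lay on the floor on every array, so its r with the other families is not given. These are descriptions over arrays that share series and rescaling. In the LD, DD and control arrays, *msp* and *nspd* medians moved by several units while the *ssp* medians stayed between −0.48 and 0.27. Only in WC and CC did *ssp* medians extend further, from −2.19 to 6.40. Single *ssp* probe sets did move elsewhere: *ssp-31* reached 5.17 in LD and *ssp-16* reached 3.67 in the controls. The *gsp* median reached 3.16 in LD.

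**Figure D2:**
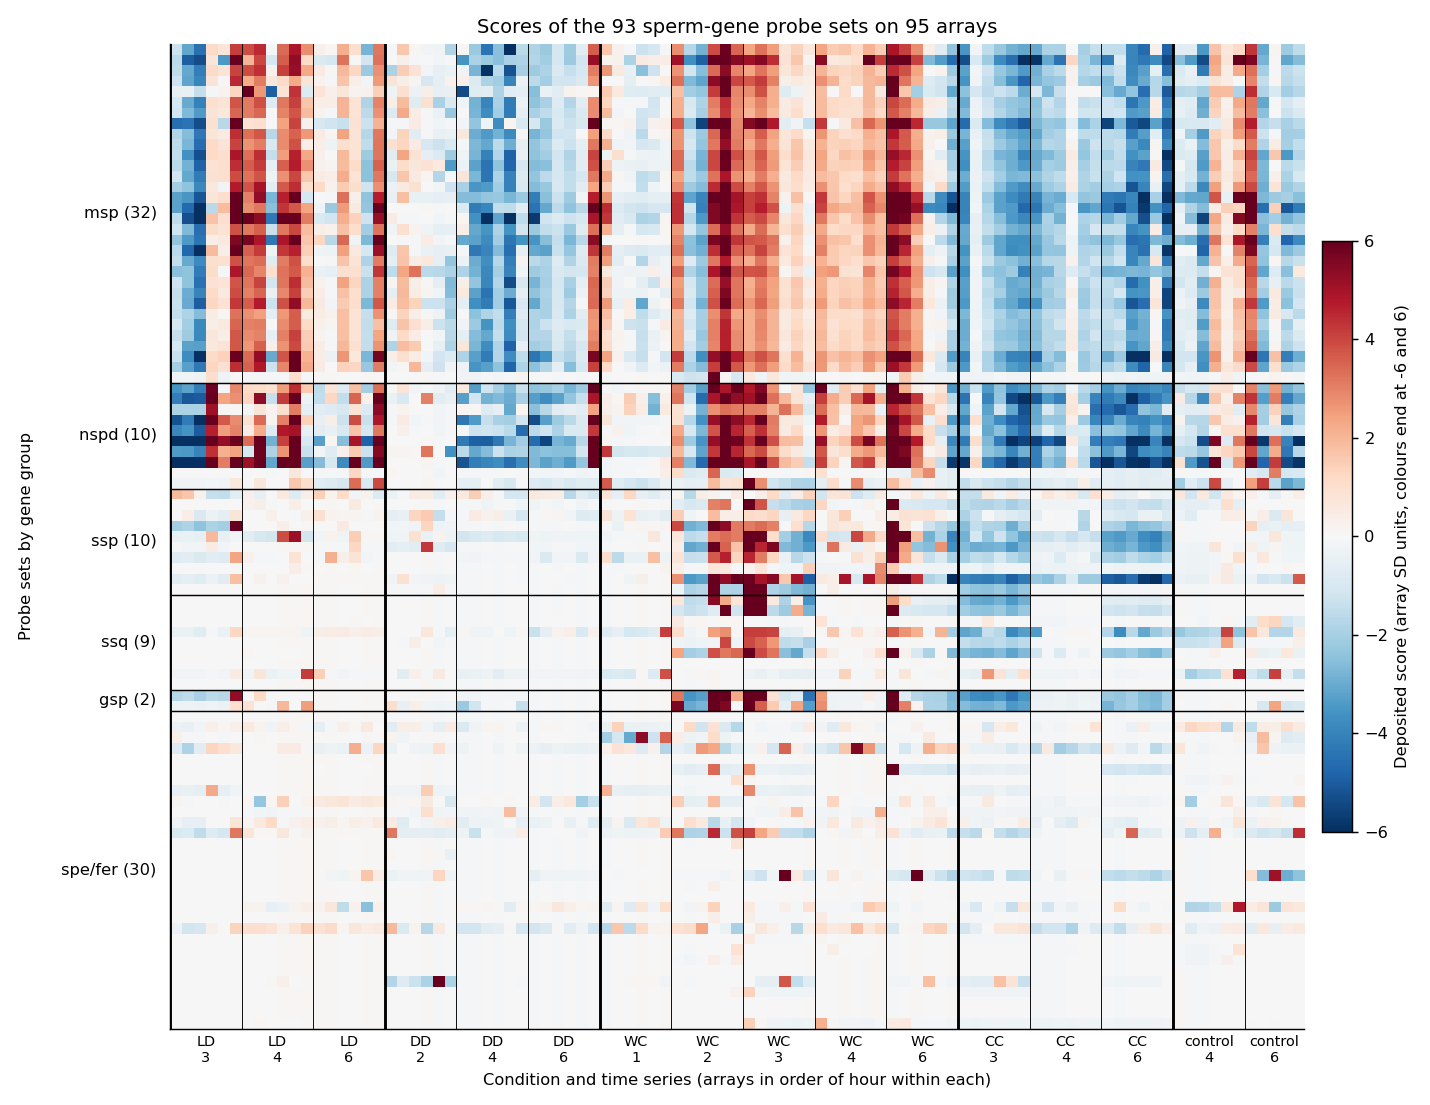
Scores of the 93 sperm probe sets (vertical axis, by gene family) on the 95 arrays (horizontal axis, by condition, series and hour), in array SD units with colours ending at −6 and 6. The *msp* and *nspd* blocks vary between arrays in every condition, and the *ssp*, *ssq* and *gsp* blocks mainly in WC and CC.

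The course of the *msp* genes over both temperature days shows where the scores were high. In series 6 the *msp* medians at hours 2 to 22 of the WC day were 4.87, 3.79, 2.37, 0.10, −0.33 and −2.13, and those of the CC day were −1.75, −1.50, −3.88, −3.63, 0.03 and −4.42. In series 3 they were 2.62, 3.40, 2.49, 0.66, 1.23 and 0.40 on the WC day and −3.28, −0.31, −1.48, −2.35, −2.91 and −3.39 on the CC day. In series 4 they were 2.34, 1.32, 1.26, 1.25, 2.11 and 1.66, then −2.86, −2.01, −1.79, 0.15, −1.87 and −1.46. At hours 2, 6 and 10 the WC values (1.26 to 4.87) and the CC values (−3.88 to −0.31) did not overlap. The medians of hours 14, 18 and 22 of WC lay below those of hours 2, 6 and 10 in series 3 and 6, and in series 4 they overlapped.

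**Figure D3:**
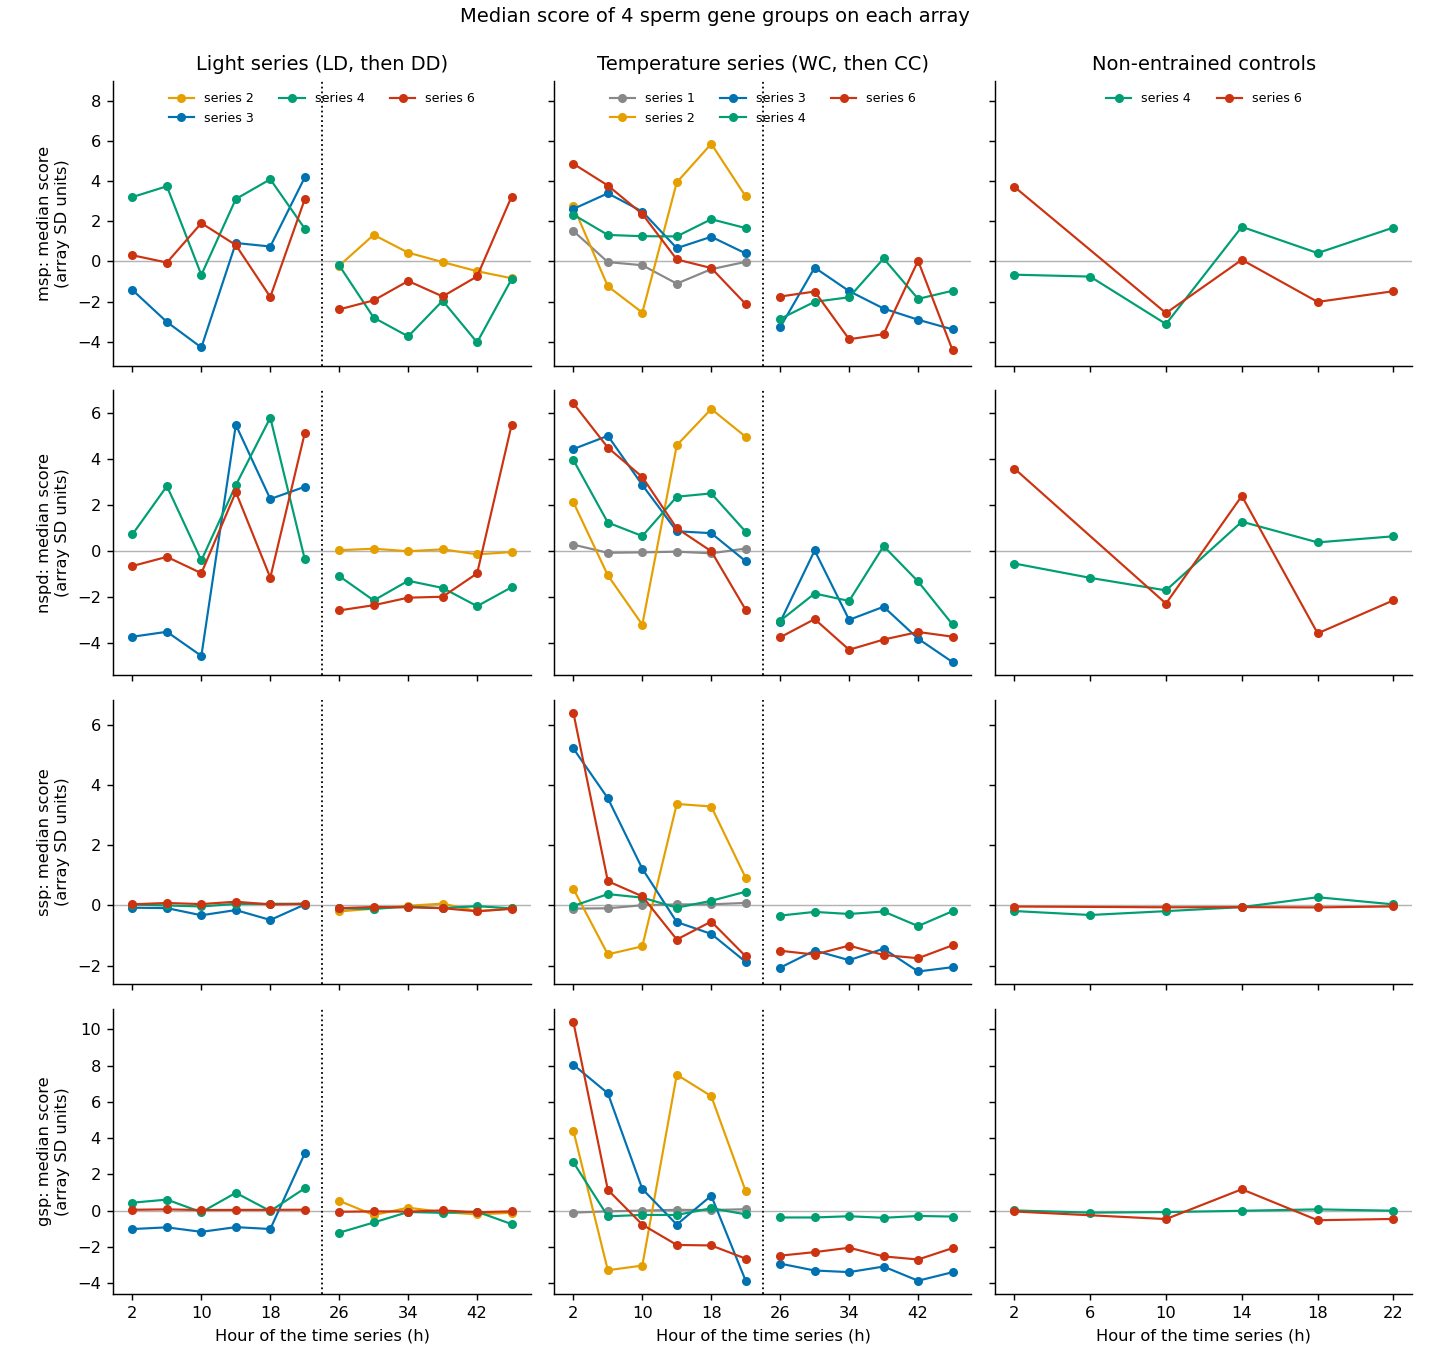
Median score of the *msp*, *nspd*, *ssp* and *gsp* probe sets on each array (array SD units) against the hour of the series, with 1 coloured line per time series, for the light series, the temperature series and the controls. A dotted line parts the entrained from the free-running day, and in series 3, 4 and 6 the *msp* and *nspd* medians lie above 0 at hours 2 to 10 of WC and mostly below 0 in CC.

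The comparison of the CC day with the WC day asked how the genes changed from the temperature cycle to constant cold. The sperm genes were lower on the CC day. Of 78 sperm probe sets tested (of 93), 52 fell and 0 rose in a limma fit that paired arrays 24 h apart in the same series (36 arrays, 18 pairs, Benjamini-Hochberg adjusted p under 0.05), and 61 had an unadjusted p under that threshold. Over all 16839 probe sets tested, 14.7% fell and 15.2% rose at the adjusted threshold. Here and below, the share of all probe sets under the unadjusted threshold is not given. Unadjusted counts of sperm probe sets thus cannot be set beside a background. The median difference was −2.40 over the 93 probe sets, tested or not, and −0.03 over all probe sets tested. In series 3, 4 and 6 the sperm gene medians were −3.35, −0.88 and −2.89. Cycle, age and time on FUDR all differ between the days and cannot be told apart. In whole animals, fewer sperm or spermatocytes and less RNA per cell cannot be told apart either. With each series reduced to 1 difference, 32 sperm probe sets fell, beside 0.362% of all probe sets (61 of 16839).

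The *msp* genes gave most of these calls. Of 32 *msp* probe sets, 31 fell, with a median difference of −3.86 (−4.05, −3.38 and −4.11 in series 3, 4 and 6). The second-day *msp* median was the lower of the pair in 17 of 18 pairs. The scores of *msp-152* were 3.27, 4.04, 3.07, 0.80, 1.22 and 0.06 on the WC day of series 3 and −3.59, −0.40, −1.61, −3.13, −3.80 and −3.62 on its CC day. They were 3.01, 1.59, 1.31, 1.34, 2.76 and 1.99, then −3.23, −2.31, −2.39, −0.29, −1.81 and −1.70 in series 4. They were 6.30, 4.58, 2.47, −0.57, −0.32 and −1.67, then −2.23, −1.48, −3.98, −4.49, −0.97 and −5.84 in series 6. Every CC array was below its WC partner, and in series 3 and 4 the days did not overlap at all. The fitted difference of *msp-152* was −4.56 (SE 0.41, limma, adjusted p = 1.23e-06, n = 18 pairs).

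Other *msp* genes had like values. The difference was −3.84 for *msp-40*, −3.69 for *msp-31* and −3.29 for *msp-59*, each lower in 18 of 18 pairs, and −6.01 for *msp-74*, the lowest of the family. By the RefSeq annotation the *msp* probe sets lie in gene clusters on chromosomes II and IV. The median difference was −4.43 over the 14 probe sets on II (−6.01 to −0.27) and −3.56 over the 17 on IV (−5.34 to −3.01). Of the 32 *msp* probe sets 31 have shared probes, so these genes and clusters may not be separate readings. The exception to the calls was *msp-32*, read by a probe set without shared probes, which stayed near the floor on most arrays (difference −0.27, limma adjusted p = 0.0965). A second probe set for *msp-32*, with shared probes, varied from −3.11 to 12.82 over the WC arrays.

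The *nspd* genes, which have no assigned function here, fell by more. Of 10 probe sets, 8 fell, with a median of −4.66 (−4.83, −3.77 and −5.69), and the *nspd* median was lower on the second day in 18 of 18 pairs. The gene *nspd-2* scored 5.10, 6.50, 3.29, 1.96, 0.79 and −0.49 on the WC day of series 3 and −4.45, 0.04, −3.98, −2.30, −5.44 and −6.87 on the CC day. In series 4 it scored 4.13, 2.22, 1.46, 3.39, 5.00 and 2.18, then −5.15, −3.46, −4.12, 0.62, −1.98 and −4.02. In series 6 the scores were 6.25, 5.93, 4.31, 0.84, 1.23 and −1.69, then −4.22, −3.84, −6.33, −4.92, −4.18 and −3.53. The days of *nspd-2* did not overlap in series 4 or in series 6, and all 18 pairs were lower in CC. Its difference was −6.70 (SE 0.56, limma adjusted p = 5.85e-07). The lowest difference of any sperm probe set was that of 172527_x_at, which matches several *nspd* genes (−7.25, SE 0.66, limma adjusted p = 1.23e-06). The differences were −5.28 for *nspd-1* and −4.11 for *nspd-4* (both limma adjusted p = 3.06e-06). Those of *nspd-9* (−1.21, limma adjusted p = 0.0637) and *nspd-8* (−0.45) did not pass.

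In the *ssp* family 7 of 10 probe sets fell, with a median of −1.74 that was uneven over series (−2.85, −0.75 and −2.08). The lowest difference was in *ssp-16*, which ran from −6.05 to 12.23 over the 18 WC arrays and from −6.16 to −0.81 over the 18 CC arrays (−6.32, SE 1.08, limma adjusted p = 0.000261, lower in 15 of 18 pairs). Its WC scores in series 6 were 12.23, 7.35, 4.38, −1.83, −1.52 and −6.05, so the high arrays of *ssp-16* were those of hours 2, 6 and 10. The change of *ssp-10* was smaller and more even, −1.27 (SE 0.19, limma adjusted p = 8.39e-05, 18 of 18 pairs). The differences were −2.02 for *ssp-35* (limma adjusted p = 0.00736) and −2.40 for 172704_x_at, which matches several *ssp* genes (limma adjusted p = 0.00777).

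The *ssq* genes (sperm-specific family, class Q) were near the floor on most arrays, and 2 of 9 probe sets fell, of 7 tested. In the *ssq-1* probe set 187960_at the WC scores were 4.17, 4.16, 4.06, −0.57, −0.42 and 0.06 in series 3. Those of series 4 were 0.09, 1.62, 0.17, 0.87, 0.16 and 0.31, and those of series 6 were 3.57, 2.71, 2.15, −0.15, 2.05 and −2.10. Its CC scores ran from −3.89 to 0.11. The difference was −3.15 (SE 0.56, limma adjusted p = 0.000411), lower in 17 of 18 pairs. A difference of −2.72 in *ssq-2* also passed (limma adjusted p = 0.0197). Another *ssq-2* probe set had the highest difference of the 93, 0.08, and was not called.

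Both *gsp* genes fell, mainly through a few arrays. They encode closely related PP1-type phosphatases needed in sperm development. The score of *gsp-4* was 7.22, 3.57, 1.51, −0.59, 2.35 and −3.31 in WC series 3, 2.80, −0.30, −0.22, −0.23, −0.12 and −0.19 in WC series 4, and 8.37, 3.03, 0.20, −1.87, −1.89 and −2.61 in WC series 6. All 18 CC scores lay between −3.43 and −0.28. Hour 2 was the highest array of *gsp-4* in each of these WC series, and the late WC arrays overlapped with CC. The difference was −2.87 for *gsp-4* (SE 0.80, limma adjusted p = 0.0111) and −3.15 for *gsp-3* (SE 1.10, limma adjusted p = 0.0372). By series they were −4.73, −0.62 and −3.25 for *gsp-4* and −5.88, −0.67 and −2.89 for *gsp-3*. Without series 3 neither *gsp* gene was called.

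Over all probe sets tested 14.7% fell, and the *spe* and *fer* probe sets as a group did not stand out from this share. Of the 30, 17 were tested and 2 fell, and the median of the 30 was −0.07. The genes that fell were *spe-39* (vesicular trafficking), with −0.35 (SE 0.12, limma adjusted p = 0.0285), and *spe-6* (a casein kinase 1-like kinase that acts in spermatocytes), with −1.41 (SE 0.51, limma adjusted p = 0.0449). *spe-6* did not follow the *msp* genes: its highest WC scores came at hour 14, with 3.51, 5.55 and 2.19 in series 3, 4 and 6, while hours 2 and 6 lay between −1.18 and 0.26. It was lower in CC in 11 of 18 pairs. The differences of *spe-44*, a transcription factor for spermatogenesis genes (−0.80, limma adjusted p = 0.0579), and of *spe-4*, a presenilin (−0.39, limma adjusted p = 0.0696), did not pass. Nor did those of *spe-15*, a myosin VI (−0.40), *spe-11*, a sperm-supplied embryonic factor (−0.65, limma adjusted p = 0.229), *spe-26*, a kelch-repeat protein (−0.21), and *spe-41*, a TRPC-type channel (−0.04).

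Leaving out series 3 left 44 sperm probe sets that fell: 30 *msp*, 8 *nspd*, 3 *ssp*, 1 *ssq*, and *spe-39* and *spe-44*. In that fit 10.0% of all probe sets fell. At hours 2, 6 and 10 alone, a comparison chosen after the data had been seen, 50 sperm probe sets fell, beside 12.3% of all.

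At hours 14, 18 and 22 both days were at 15°C, so that animals at the same temperature could be compared. Of 75 sperm probe sets tested, 40 fell and 0 rose, beside 5.51% of all probe sets that fell and 3.92% that rose (9 pairs, limma). They were 30 of 32 *msp* and 8 of 10 *nspd* probe sets, *ssp-10* and *spe-6*. The medians were −2.84 for *msp*, −3.29 for *nspd*, −0.84 for *ssp* and −0.89 for *gsp*, with 0 of 2 *gsp* genes called, and −0.95 over the 93. The *msp* medians ran from −2.13 to 2.11 on the WC day and from −4.42 to 0.15 on the CC day at these hours, and overlapped. The *nspd* median was lower in 9 of 9 pairs. For *nspd-2* the difference was −5.09 (SE 0.55, limma adjusted p = 0.002). The calls rested on few arrays. Without series 3, 8 sperm probe sets fell (1.37% of all), without series 4, 18 fell (3.02% of all), and with 1 difference per series 0 fell (0.0% of all).

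**Figure D4:**
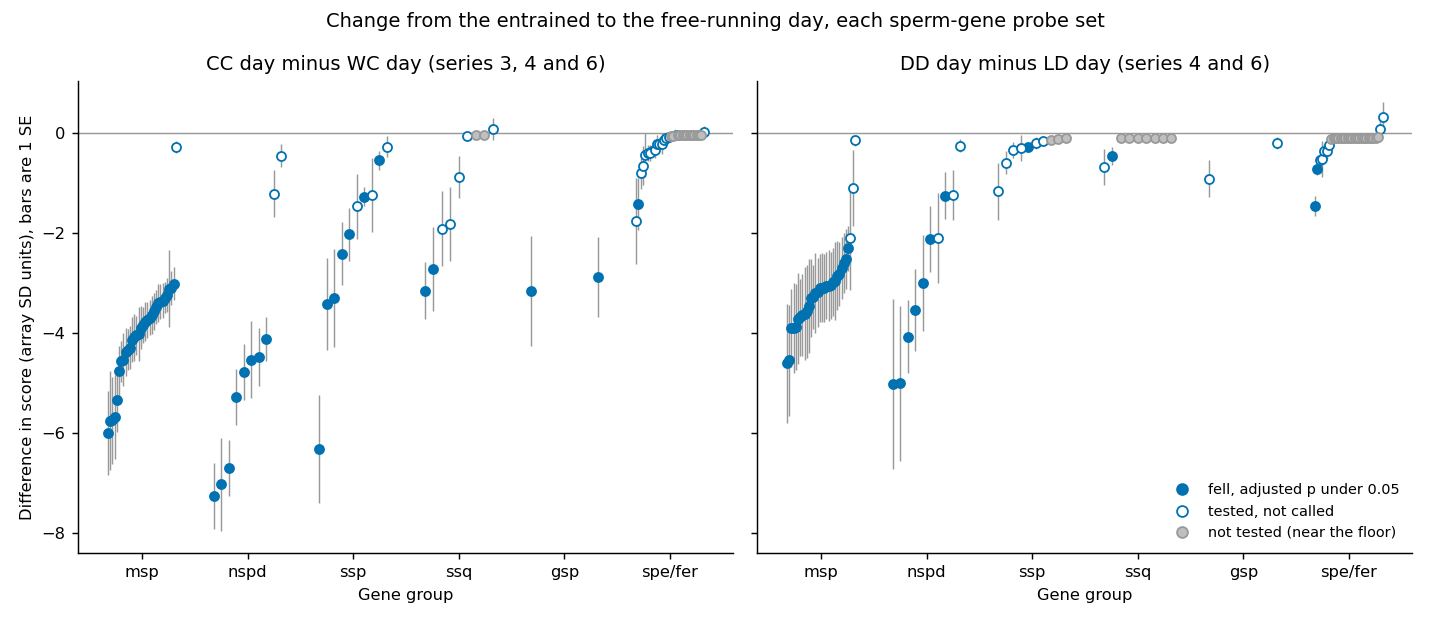
Difference of the second day minus the first day (array SD units, bars 1 SE) for each sperm probe set by gene family, in CC minus WC and in DD minus LD. Filled points passed the test, open points did not and grey points were not tested, and the *msp* and *nspd* points lie below 0 in both comparisons (medians −3.86 and −4.66, and −3.09 and −2.56).

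The DD day was compared with the LD day in series 4 and 6, where 62 sperm probe sets were tested. Most *msp* and *nspd* probe sets fell here too, and few of the other families passed the test. In total 40 fell and 0 rose (24 arrays, 12 pairs, limma), with 47 at the unadjusted threshold. Over all 15879 probe sets tested, 26.1% fell and 20.5% rose. The median difference was −0.54 over the 93, tested or not, and −0.13 over all probe sets tested. Here as well the cycle, the age of the animals and the time on FUDR cannot be told apart. Reduced to 1 difference per series, which leaves 2 values, 0 sperm probe sets fell, as did 0.0% of all.

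Of 32 *msp* probe sets, 29 fell, with a median of −3.09 that came mostly from series 4 (−4.77, and −1.44 in series 6). The *msp* medians of series 4 were 3.21, 3.75, −0.67, 3.11, 4.10 and 1.64 in LD and −0.20, −2.80, −3.74, −1.96, −4.04 and −0.88 in DD. Those of series 6 were 0.31, −0.06, 1.91, 0.82, −1.77 and 3.10 in LD and −2.39, −1.94, −0.98, −1.75, −0.75 and 3.23 in DD. The days of series 6 overlapped, and at hours 18 and 22 its DD median was above the LD median. Of the 12 pairs 10 were lower in DD, among them all 6 at hours 2, 6 and 10. The difference was −3.90 for *msp-152* (SE 0.78, limma adjusted p = 0.00138, 11 of 12 pairs), −2.30 for *msp-33* (limma adjusted p = 0.00117) and −3.27 for *msp-63*.

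Of 10 *nspd* probe sets 7 fell, with a median of −2.56 (−3.94 and −1.51). In series 4 *nspd-2* scored 1.28, 5.37, −1.37, 4.22, 6.58 and −0.30 in LD and −3.24, −1.13, −2.81, −2.65, −2.99 and −1.95 in DD. In series 6 it scored −1.47, 1.27, −1.46, 3.48, 0.30 and 7.06 in LD and −3.30, −3.71, −3.23, −2.38, −1.40 and 4.88 in DD. Every DD array was below its LD partner, although the high array of hour 22 stood apart on both days of series 6. The difference of *nspd-2* was −4.07 (SE 0.73, limma adjusted p = 0.000672).

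Among the *spe* and *fer* genes *spe-44* and *spe-39* fell, in a comparison where 26.1% of all probe sets tested fell. For *spe-44* the LD scores were 0.96, 1.03, 0.81, 0.32, 0.83 and 1.36 in series 4 and 0.87, 1.16, 0.18, 0.69, 0.46 and 0.57 in series 6. The DD scores were −1.13, −1.12, −0.66, −0.53, 0.08 and −1.04 in series 4 and −1.08, −0.85, 0.08, −0.65, −0.22 and −1.11 in series 6. All 12 LD scores of *spe-44* were above all 12 DD scores (−1.45, SE 0.20, limma adjusted p = 0.000124), which was the lowest adjusted p of the sperm genes in this comparison. For *spe-39* the LD scores ran from −0.08 to 1.18 and the DD scores from −0.72 to 0.00, lower in 12 of 12 pairs (−0.70, SE 0.13, limma adjusted p = 0.000718). Probe sets on the floor, such as that of *spe-40*, were also lower in 12 of 12 pairs, by −0.09, so the pair count alone says little. Of the other families only *ssp-33* (−0.27, SE 0.07, limma adjusted p = 0.00779) and *ssq-1* (−0.46, limma adjusted p = 0.0464) passed. The scores of *ssp-33* stayed close to the floor, from −0.05 to 0.52 in LD and from −0.26 to −0.01 in DD. *gsp-3* and *gsp-4* were not called, and in series 6 both lay on the floor on both days.

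Without series 4, 7 sperm probe sets fell (*msp-3*, *msp-33*, *msp-63*, *msp-152*, *nspd-2*, *spe-39* and *spe-44*), beside 18.7% of all probe sets. Without series 6, 38 fell, beside 15.8%. Each of these fits rests on the other series alone, so its p-values measure the spread over the hours of that series and not between series. At hours 14, 18 and 22, dark on both days, 4 of 60 tested fell and 0 rose, beside 14.7% and 11.9% of all. They were *spe-44* (−1.28, limma adjusted p = 0.0166), *nspd-2* (−4.64, limma adjusted p = 0.0315), *ssp-37* (−0.83, limma adjusted p = 0.0337) and *spe-39* (−0.64, limma adjusted p = 0.0486), and 18 had an unadjusted p under the threshold. The *msp* median at these hours was −2.83, with 0 of 32 called, and it was −5.19 in series 4 and −0.45 in series 6. At hours 2, 6 and 10 alone, chosen after the data had been seen, 33 sperm probe sets fell, beside 11.5% of all.

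Within the LD day the question was whether sperm genes differed between light (hours 2, 6 and 10) and dark (hours 14, 18 and 22). Of 64 tested, 7 were lower in light and 1 was higher (18 arrays, limma, 21 at the unadjusted threshold). Over all probe sets 7.0% were lower and 8.84% higher at the adjusted threshold, and the share at the unadjusted one is not given here. Those lower were 6 *nspd* probe sets and *spe-6*, and the 1 that was higher was *ssp-37*. The *nspd* median was −3.85, with −7.06, −1.97 and −2.77 in series 3, 4 and 6. The LD scores of *nspd-4* were −3.90, −3.59, −5.01, 4.66, 2.49 and 2.96 in series 3, 0.48, 2.23, −0.77, 4.83, 4.99 and −0.44 in series 4, and −0.62, −0.46, −0.93, 1.72, −1.06 and 3.19 in series 6. Light and dark did not overlap in series 3 and overlapped in the other series (−3.99, SE 0.96, limma adjusted p = 0.0185). The differences were −4.93 for *nspd-1* (limma adjusted p = 0.0193), −4.88 for *nspd-2* (limma adjusted p = 0.0266) and −7.90 for 172527_x_at (limma adjusted p = 0.0452).

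The difference of *spe-6* in LD was −2.09, −0.34 and −1.43 in series 3, 4 and 6 (limma adjusted p = 0.0194). That of *ssp-37* was 2.43, −0.14 and 1.17 (1.15, SE 0.37, limma adjusted p = 0.0479). The *msp* probe sets had a median of −1.89 with 0 of 32 called (9 unadjusted), and their series medians were −4.82, −0.98 and 0.02. In LD series 3 the *msp* medians were −1.42, −3.02, −4.29, 0.92, 0.74 and 4.19. Without series 3, and likewise without series 6, 0 sperm probe sets and 0.0% of all were lower in light, and without series 4, 7 were, beside 7.89% of all.

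In the other conditions 0 sperm probe sets passed the test of early against late hours. DD had 63 tested, WC 82, CC 76 and the controls 69, of which 1, 2, 2 and 0 passed the unadjusted threshold (limma). Over all probe sets the shares that passed the adjusted threshold were, in the same order, 0.0122%, 2.54%, 0.474% and 0.0%. The WC series went opposite ways. The warm minus cold medians of series 1, 2, 3, 4 and 6 were 1.00, −4.70, 1.85, −0.04 and 4.44 for *msp*, 0.15, −6.16, 3.93, −0.28 and 5.31 for *nspd*, and −0.10, −5.59, 6.51, 0.81 and 5.74 for *gsp*. Series 2 was thus low where series 3 and 6 were high. Its *msp* medians were 2.74, −1.24, −2.55, 3.94, 5.87 and 3.24, with the high arrays at hours 2, 14, 18 and 22. Series 2 is also the series for which no set of arrays with a shared mean was found, and whether this has a part in its scores was not tested. Without it, 34 of 78 tested were higher in the warm hours (29 *msp*, 4 *nspd* and *ssp-10*), beside 3.79% of all probe sets. This is the highest count over the fits that each left out 1 WC series, which ran from 0 to 34.

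The controls also differed between series. The early minus late *msp* median was −2.78 in control series 4 and 1.62 in control series 6, and that of *nspd* was −2.17 and 1.97. In DD the *msp* medians were 1.09, −0.02 and −2.01 in series 2, 4 and 6, and in CC they were 1.09, −1.14 and 0.27 in series 3, 4 and 6. The differences of phase response between LD and DD, WC and CC, and LD and controls were called for 0 sperm probe sets (limma, unadjusted 5, 0 and 3), beside 0.00598%, 4.06% and 0.0% of all.

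**Figure D5:**
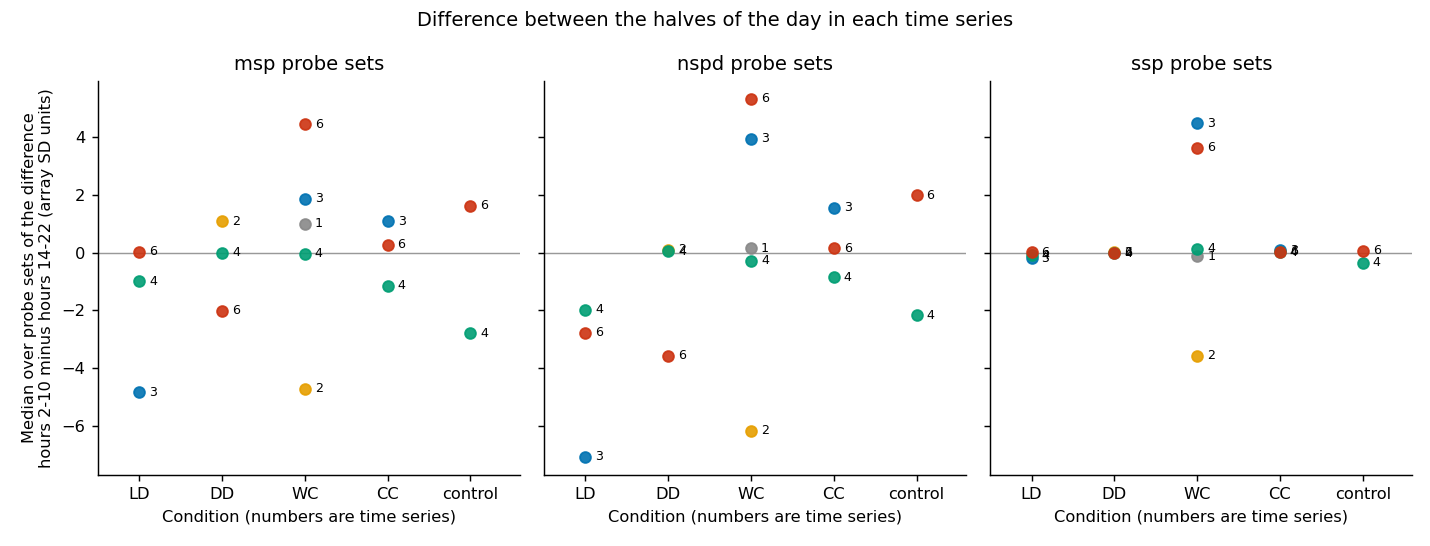
Median over the *msp*, *nspd* and *ssp* probe sets of the difference between hours 2, 6 and 10 and hours 14, 18 and 22 (array SD units), with 1 point per time series, numbered, in each condition. The WC points of *msp* spread from −4.70 (series 2) to 4.44 (series 6), and the LD points of *nspd* all lie below 0.

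A test of a 24-h cosine and sine term found 0 rhythmic sperm probe sets in each of the 5 conditions (limma F test). At the unadjusted threshold 7 passed for LD, 2 each for DD, WC and CC, and 0 for the controls. Of all probe sets, 1.0% passed the adjusted threshold for LD, 0.0% for DD, 6.29% for WC, 0.0121% for CC and 0.0% for the controls. Without WC series 2, 4 of 78 sperm probe sets passed in WC, all *msp*, beside 9.98% of all probe sets, and without WC series 1, *spe-6* passed, beside 6.08% of all.

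Several *spe* genes were far from the floor on some arrays. Scores more than 1 from the floor were found on 2 of the 95 arrays for *spe-4*, 8 each for *spe-11* and *spe-41*, 10 for *spe-26*, 13 for *spe-15* and 23 for *spe-51*. *spe-11* lay between −0.10 and 0.10 on every LD and DD array, and in WC it reached 6.01 at hour 2 of series 6 and 3.38 at hour 14 of series 2. *spe-4* reached 2.13 in WC and stayed between −0.31 and −0.16 in CC. *spe-26* had 7.01 at hour 18 of DD series 2, with an LD range of −0.03 to 0.32. *spe-41* ran from −3.04 to 5.37 in WC, both within series 1, and *spe-15* reached 4.81 at hour 22 of control series 4. *spe-51* reached 12.67 at hour 10 of WC series 6 and 9.56 at hour 14 of WC series 3. The arrays with these highest scores are not at 1 hour or in 1 series.

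Lists of other genes were described in the same fits. Over all probe sets tested, 14.7% fell and 15.2% rose in CC minus WC. In DD minus LD 26.1% fell and 20.5% rose, and the list counts are to be read beside these shares. Among 13 probe sets of other sperm genes (11 tested), 6 fell and 2 rose in CC minus WC, with a median of −1.23, and 4 fell and 0 rose in DD minus LD, with a median of −0.15. Of 25 oocyte and eggshell probe sets, 0 fell and 9 rose in CC minus WC (0.13), and 6 fell and 6 rose in DD minus LD (−0.01). Of 13 zygotic embryo probe sets, 1 fell and 4 rose in CC minus WC (0.85), and 1 fell and 7 rose in DD minus LD (1.16). Of 9 male-specific probe sets 3 were tested, and 0 fell and 1 rose in either comparison. Of 18 muscle probe sets, 11 fell in CC minus WC (−0.76) and 10 fell in DD minus LD (−0.90), and 0 rose in either. Of 16 larval and moulting cuticle probe sets, 3 fell and 8 rose in CC minus WC (0.50), and 1 fell and 1 rose in DD minus LD (−0.13). Of 8 yolk probe sets 3 were tested, of which 1 fell in CC minus WC and 2 fell in DD minus LD, with 0 that rose. The part of these cell types in the sperm gene scores was not tested.

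The genes outside the list whose scores went most closely with the sperm genes were found over all 95 arrays, as a description. With the median of the 93 probe sets, the highest Pearson r was 0.87 for ZK546.3, then 0.85 for *gipc-2* and 0.84 for T27E7.1, *msrp-2* and *nsph-3.1*. The next were C15C6.2 and *spch-1* (0.83) and C32E8.4, Y38C1AA.7 and *msd-2* (0.82). With the *msp* median alone, r was 0.94 for Y59H11AM.1, 0.89 for F58A6.9 and 0.88 for *msd-4*, and cuticle collagen genes came into the first 10, with 0.82 for *col-129*, 0.79 for *col-139* and 0.77 for *col-81*. The probe sets named with the *msp* median all have IDs ending in _x_at or _s_at. So do those of ZK546.3, *gipc-2*, *spch-1*, C32E8.4 and *msd-2*. Whether shared probes have a part in these r was not tested. The genes *msd-2*, *msd-4* and *spch-1* are also in the list of other sperm genes. The CC minus WC difference was −4.94 for ZK546.3, −6.17 for *gipc-2*, −3.06 for Y59H11AM.1 and −5.10 for *col-129*. In DD minus LD the values were −0.59, −0.16, −2.29 and −3.71 in the same order. These genes were picked by their scores on the same 95 arrays, so their differences are not a separate reading.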

How the data were processed

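RNA of whole adults had been hybridised to Affymetrix *C. elegans* Genome Arrays. Per the methods and the labels, the authors ran GCRMA in R 2.7.1, subtracted the time series mean from each log2 value and brought every array to mean 0 and variance 1, so the deposited values are scores. From the scores, both days of LD and DD series 4 and 6 and of WC and CC series 3, 4 and 6 share 1 mean, other series have their own, and for WC series 2 none was found. The 77 array controls among the 22625 probe sets were not used. Gene symbols are those of the platform annotation.

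The floor of an array was taken as the median score within its densest 5%. A probe set whose root mean square departure from the floors, over the arrays compared, stayed under 0.1 was not tested. Models were fitted to all other probe sets with limma 3.58.1 in R 4.3.3, with the time series, or for day comparisons the series and hour, as a block. The series number pairs the arrays, since by the labels same-numbered arrays belong to 1 time-series experiment. The p-values were adjusted by Benjamini-Hochberg over all probe sets tested and called under 0.05. No term was fitted for the population, and arrays of 1 series may not be independent. The members and lists were chosen with earlier results of these data known. Named genes are a fixed set of *spe*, *fer* and *gsp* genes, those with the lowest p of each family and comparison, and the highest and lowest differences. Alternatives were no filter, floors set to 0, array SDs put back, no block, each series left out, pooled arrays left out, 1 difference per series, and other choices of hours. The fits were checked on simulated data. Other steps used Python 3.11.15, numpy 2.4.6, pandas 2.3.3 and matplotlib 3.10.9.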

Additional observations from a re-analysis of the deposited data

Results flagged for a closer look

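Among the 5 WC arrays of each hour, 11 of 78 groups examined over 13 measures held 1 array far from the others by Dixon's criterion at 95%. For normally distributed values chance exceeds it in about 1 of 20 groups. Scores on the floor, as in many *ssq* arrays, are not of that kind, so this rate may not hold. The measures share arrays and genes. The WC series also do not share a mean: series 3, 4 and 6 are centred over WC and CC, series 1 over WC alone, and for series 2 none was found. An offset between series and a change of the genes cannot be told apart here. At hour 14, series 2 stood high, with a median of 3.37 for *ssp*, 7.50 for *gsp* and 3.06 for all sperm probe sets, and a score of 6.50 for *gsp-4*. At hour 18 series 2 was high with medians of 3.29 for *ssp*, 2.25 for *ssq* and 3.34 for all sperm probe sets. Series 3 stood apart in *ssq*, high at hours 2 and 6 (3.94 and 3.52) and low at hour 14 (−0.57). At hour 2 series 6 was high in *msp-152* (6.30, with the next array at 3.31).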

How the results depend on the processing

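None of the 52 calls of named sperm probe sets that were refitted changed direction under the alternatives run for them. With no filter on low scores, 74 sperm probe sets fell in DD minus LD, 35 in DD minus LD at the dark hours and 18 in CC early minus late, beside 50.2%, 42.2% and 25.3% of all probe sets. In LD 4 were lower and 0 higher in light, beside 3.58% and 4.42%. Probe sets on the floor then enter, and their shared small shift is called with them. With 1 difference per series, 32 fell in CC minus WC and 0 in CC minus WC at the cold hours, in DD minus LD, in its dark hours and in LD in either direction, with fewer values to test. With array SDs put back, 1 was lower in CC early minus late, and 0 were higher in LD. Without the pooled arrays, 1 fell at the dark hours and 0 were higher in LD. For the fits with array SDs put back and without the pooled arrays, the shares over all probe sets are not given here. Leaving out 1 series at a time gave 44 to 49 in CC minus WC, 8 to 35 at the cold hours, 7 to 38 in DD minus LD and 0 in each case at the dark hours. It gave 0 to 7 lower and 0 to 1 higher in LD, 0 to 34 higher in WC, 0 to 4 in the WC 24-h test, and 0 to 1 for LD against DD (lower), WC against CC (higher) and LD against controls (lower). Over all probe sets, 10.0% fell in the fit with 44, 1.37% in that with 8, and 18.7% and 15.8% in those with 7 and 38 for DD minus LD. In DD minus LD and its dark hours, each such fit rests on the other series alone, with no spread between series. In WC 3.79% were higher in the fit with 34, and 9.98% passed in the 24-h fit with 4. For the other ends of these ranges the share is not given here. Where neither fewer values nor the floor accounts for a change, the cause was not tested.

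Without the replicate block, which pairs arrays by series and hour, 54 sperm probe sets fell in CC minus WC, 37 at the cold hours, 43 in DD minus LD and 4 at the dark hours. In LD 7 were lower and 1 higher, and the block changed no count by over 1.5 times. The shares over all probe sets without the block are not given here, so these counts cannot be set beside them. Of the counts, 247 stayed within 1.5 times and 31 did not. Of the 52 calls, 10 were lost in over 50% of their alternatives: *gsp-3* (7 of 11) and *spe-6* (8 of 11) in CC minus WC, *spe-6* (7 of 9) and *ssp-10* (6 of 9) at the cold hours, *ssq-1* (6 of 9) and *ssp-33* (5 of 9) in DD minus LD, *ssp-37* and *spe-39* (5 of 8 each) at the dark hours, and *ssp-37* and 171880_x_at (6 of 9 each) in LD. In CC minus WC, *spe-39*, *ssq-2*, *gsp-4* and *ssp-35* were lost in 5, 4, 3 and 3 of 11. The array scores hold no level, so genes near the floor could not be assessed.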
